A study of Mus musculus with 12 samples.

Results

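The genes described here are 10 transcripts commonly used to recognise the choroid plexus: Ttr, Kl, Folr1, Kcnj13, Clic6, Otx2, Sostdc1, F5, Aqp1 and Slc4a5. They were taken by symbol from a table of raw read counts for 24062 genes, which held all 10, and were read in each of its 12 libraries as a possible measure of choroid plexus tissue in dissected cortex. Members of a tissue signature should be high or low together in a library that holds more or less of that tissue. This holds only where that tissue is their main source. The 10 genes did not do so as a set. Otx2, Kcnj13, F5, Kl and Clic6 each followed the mean log2 level of the other tested members (Pearson's r from 0.58 to 0.78). Ttr and Aqp1 did not (r of −0.32 and −0.13). Ttr was highest in a library where Aqp1 was among the lowest, Clic6 was highest in another library, Aqp1 in yet another, and no library held the highest value of more than 2 members (3 when scaled by DESeq2 size factors or by total count). The set is therefore called by its rule, the 10 genes, and not by a tissue content.

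The study asked how a reduction of the RNA binding protein TIA1 alters the transcriptome of mice that accumulate human tau. Cortex RNA came from 9 month old mice of 4 groups, with 3 mice per group and 1 library per mouse. WT mice carried neither change, and Tia1+/- mice had 1 mutant Tia1 allele, whose shifted reading frame yields no TIA1 protein. PS19 mice carried both Tia1 alleles and a transgene for human 1N4R tau with the P301S mutation under the Prnp promoter, and P301S Tia1+/- mice combined the transgene with 1 mutant allele. The transgenic line had a mixed B6 and C3 background and was crossed with Tia1 mutants on C57BL/6J. Groups were taken from the library titles. In the deposited descriptions the 2 heterozygous groups carry exchanged genotype entries. A direction or size that involves either group, the interaction included, therefore rests on the titles.

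The choroid plexus is a folded epithelium on a vascular stroma inside the brain ventricles, which makes cerebrospinal fluid. Its epithelial cells secrete carriers such as transthyretin, move water and ions through a set of channels and cotransporters, and take up folate and hormones for the brain. The homeodomain factor OTX2 is needed for their development and upkeep. Adult cortex holds no choroid plexus, but the plexus of the lateral ventricle lies beneath it, and several of these genes are also expressed by other brain cells, by meninges or by vessels.

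Counts summed to between 11978962 and 19146484 per library. Tia1 itself did not separate the genotypes, at 61.4 to 79.8 CPM in Tia1+/- against 75.4 to 93.8 in WT, and 72.6 to 77.8 in P301S Tia1+/- against 70.8 to 77.9 in PS19 (CPM are reads per 1000000 of the TMM-scaled library size). A frame-shifted transcript can still be counted, so these values do not check the genotype labels. Prnp, whose promoter drives the transgene, was at 2018 to 2158 CPM in PS19 and 1404 to 1535 in P301S Tia1+/-. It was at 996 to 1922 CPM in Tia1+/- and 1334 to 1879 in WT. Mapt was at 439 to 462 CPM in PS19, 336 to 357 in P301S Tia1+/-, 344 to 502 in Tia1+/- and 256 to 413 in WT. What Prnp and Mapt say about the labels was not tested. Xist, the X-inactivation transcript, was at 217 to 367 CPM in the 6 libraries titled Tia1+/- or P301S Tia1+/- and at 0 to 0.783 CPM in the other 6, while the methods state that males were used. The Tia1 genotype and the sex of the mice cannot be told apart in any value below. Tia1+/- replicate 3 stood apart by its striatal genes, at 1162 CPM for the summed list against 72.6 to 193 in the other 11 libraries. Olfactory bulb genes summed to between 694 and 1094 CPM in WT replicate 1 and the 3 P301S Tia1+/- libraries, to 159 in WT replicate 2, 148 in Tia1+/- replicate 3 and 37.7 in WT replicate 3, and to between 6.81 and 18.6 in the other 5.

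Promoter sequence from RefSeq on GRCm38.p6 was available for 6 of the 10 genes, in 9 windows of 250 bases before an annotated start. It is shown for Kl and Kcnj13, whose ratio varied least among the pairs examined, and for Aqp1, which departed from them. All other pairs examined held Ttr, the gene with the widest range. Capitals mark TATAAA on the gene's own strand. This motif was chosen after the sequences were seen and occurs in 2 of the 9 windows and in 7.59% of 32851 promoter windows. The windows are chr1:87394730-87394979 on the minus strand for Kcnj13, chr5:150952357-150952606 on the plus strand for Kl and chr6:55336049-55336298 on the plus strand for Aqp1, each read 5′ to 3′ and free of annotated exons. Bases just after the Aqp1 window were not found in a GENCODE M21 transcript of Aqp1, which begins at 55336432 there. Those after the Kl and Kcnj13 windows were found in transcripts of these genes.
Kcnj13: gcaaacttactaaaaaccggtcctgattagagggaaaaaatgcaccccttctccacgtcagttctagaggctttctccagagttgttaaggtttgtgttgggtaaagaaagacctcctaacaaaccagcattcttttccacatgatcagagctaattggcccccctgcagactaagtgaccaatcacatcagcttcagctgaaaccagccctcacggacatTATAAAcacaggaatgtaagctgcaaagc
Kl: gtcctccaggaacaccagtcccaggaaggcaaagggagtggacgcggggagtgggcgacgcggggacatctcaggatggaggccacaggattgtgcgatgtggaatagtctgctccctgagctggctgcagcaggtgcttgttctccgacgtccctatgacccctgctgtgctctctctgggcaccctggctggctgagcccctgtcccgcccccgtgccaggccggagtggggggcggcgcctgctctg
Aqp1: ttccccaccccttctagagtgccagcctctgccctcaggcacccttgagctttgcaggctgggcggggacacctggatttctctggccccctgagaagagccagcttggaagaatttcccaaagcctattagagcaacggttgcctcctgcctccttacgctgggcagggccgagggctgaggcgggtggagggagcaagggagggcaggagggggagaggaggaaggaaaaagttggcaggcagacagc
The Kcnj13 box lies from 29 to 24 bases before the start, and the windows differ in base composition, with 45.2% G or C and 3 CpG in Kcnj13, 66.8% and 13 CpG in Kl, and 62.0% and 5 CpG in Aqp1. TAATCC, the letters that OTX2-type homeodomain proteins bind, was searched on both strands and overlaps no TATAAA. It was found in 1 of the 9 windows, that of an Otx2 start, and in 6.25% of all windows. The stretch is shown with the reverse complement of the motif in capitals, since Otx2 encodes the factor of that kind among the 10 genes, at chr14:48665303-48665332 on the minus strand, inside annotated Otx2 exons.
Otx2: cgtgtgcccctcGGATTAtctcgttagttt
None of the windows of Kl, Kcnj13 and Aqp1 holds these letters, which says nothing about binding elsewhere.

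The 10 genes were low in most libraries. Of the 10, 7 passed the filter on low counts and were tested with 15440 genes in all. Folr1, which encodes folate receptor alpha, Sostdc1, a secreted antagonist of BMP and Wnt signals, and Slc4a5, a sodium bicarbonate cotransporter, did not pass, with 35, 49 and 35 reads over all 12 libraries. Folr1 had 0 to 9 reads in a library and was highest in PS19 replicates 3, 2 and 1, at 0.542, 0.320 and 0.260 CPM. Sostdc1 had 2 to 7 reads and was highest in PS19 replicate 2, and Slc4a5 had 0 to 9 and was highest in WT replicate 1. Folr1 was at 0 in WT replicate 2, where 3 reads would be 0.254 CPM, and Slc4a5 was at 0 in PS19 replicate 2 and P301S Tia1+/- replicate 1, where 3 reads would be 0.240 and 0.189 CPM. Intervals and such floors cover counting error only. Because these are bulk samples, fewer cells of a type and less RNA per cell cannot be told apart.

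Per kilobase of annotated exon, which allows genes to be compared, Ttr had the highest median level over the 12 libraries, at 2.74 CPM per kb. Kcnj13 followed at 1.92 and Aqp1 at 0.905. Clic6 had 0.288, Kl 0.238 and Sostdc1 0.164, and the other 4 genes were between 0.0269 and 0.0846. The highest single levels were 33.9 CPM per kb for Ttr, 17.0 for Aqp1 and 8.30 for Clic6, each in a different library, and every other gene stayed at or under 3.33.

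**Figure D1:**
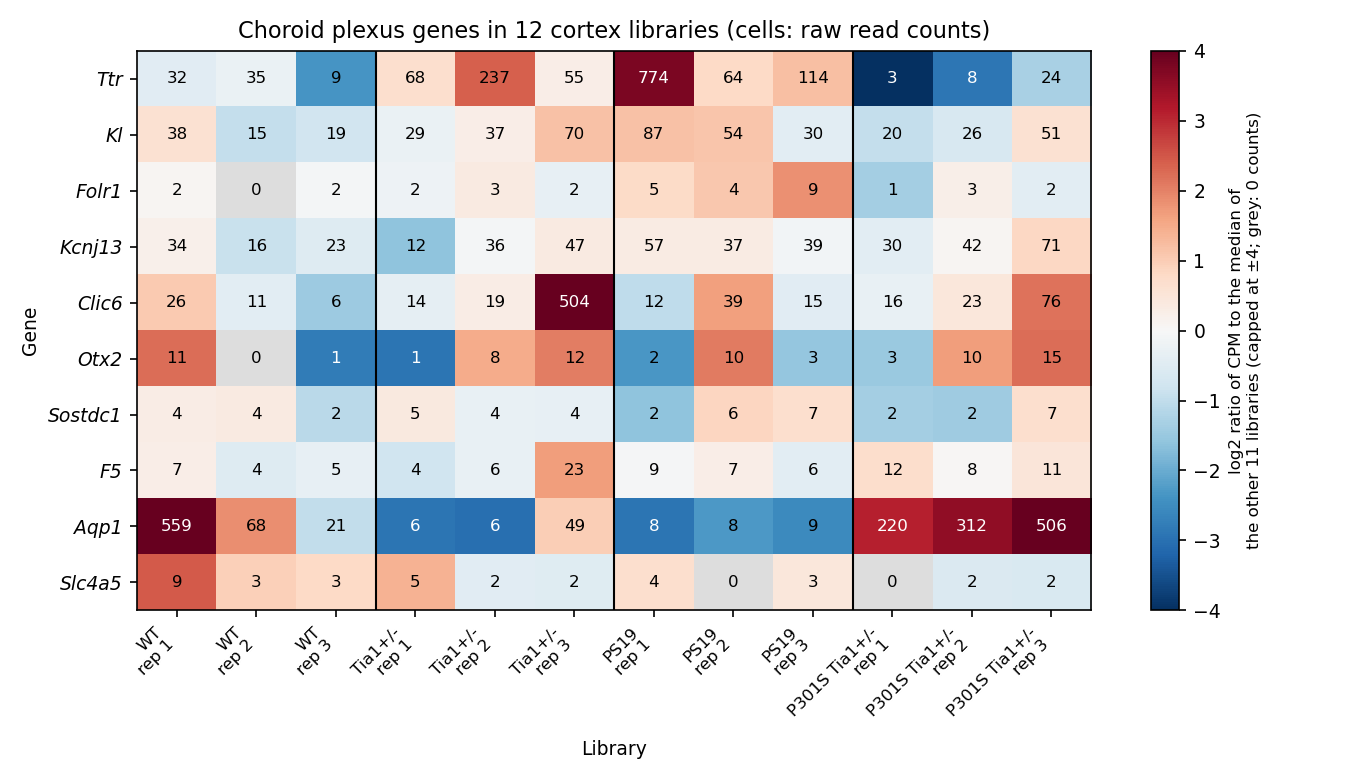
Each cell is 1 of the 10 genes (rows) in 1 of the 12 libraries (columns), coloured by the log2 ratio of its CPM to the median of the other 11 libraries and printed with its raw read count. Ttr is high in PS19 replicate 1 (774 reads), Clic6 in Tia1+/- replicate 3 (504 reads) and Aqp1 in WT replicate 1 (559 reads) and the P301S Tia1+/- libraries (220 to 506 reads), with no column in which all rows are high.

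Ttr encodes transthyretin, which choroid plexus epithelium secretes into cerebrospinal fluid as a carrier of thyroid hormone and retinol. Its level was 40.2, 5.12 and 6.87 CPM in PS19 replicates 1 to 3 and 4.69, 15.6 and 3.54 CPM in Tia1+/-. It was 2.56, 2.96 and 0.684 CPM in WT and 0.189, 0.480 and 1.43 CPM in P301S Tia1+/-. The highest library, PS19 replicate 1, thus held 13.6 times the median of the other 11. The PS19 and Tia1+/- libraries all lay above the WT and P301S Tia1+/- libraries. How many of all tested genes split in this way was not computed, so the split cannot be called particular to Ttr. The lowest library rested on 3 reads and the highest on 774. Ttr lies on chromosome 18 from 20665280 to 20674321 and overlaps no other annotated gene, so its reads are not shared with a neighbour.

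F5, coagulation factor V, was between 0.276 and 0.755 CPM in 11 libraries and at 1.48 CPM, from 23 reads, in Tia1+/- replicate 3. The other 11 libraries had 4 to 12 reads each, and the 4 groups overlapped. In the annotation F5 shares exonic bases with Gm16548 on the opposite strand, so where strand was not used in counting the source of a few reads is uncertain.

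Kl encodes Klotho, a coreceptor for FGF23 that also circulates in a shed form. It was 4.52, 4.32 and 1.81 CPM in PS19, 2.0, 2.43 and 4.51 in Tia1+/-, 3.04, 1.27 and 1.44 in WT and 1.26, 1.56 and 3.03 in P301S Tia1+/-. Kl covered a 3.59-fold range, the narrowest of the 7 tested genes, and its highest library, PS19 replicate 1, was 1.0 times the next, Tia1+/- replicate 3. In PS19 replicate 1 Kl was 2.26 times the median of the other libraries, against 13.6 times for Ttr.

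Kcnj13 encodes Kir7.1, an inwardly rectifying potassium channel of the apical membrane of choroid plexus epithelium. It was 1.89, 2.52 and 4.22 CPM in P301S Tia1+/-, 2.96, 2.96 and 2.35 in PS19, 0.828, 2.36 and 3.03 in Tia1+/- and 2.72, 1.35 and 1.75 in WT. All 4 groups overlapped, and PS19 replicate 1, the library highest for Ttr, was 1.25 times the median of the others. Kcnj13 lies within Gigyf2 on the opposite strand and shares exonic bases with it, so part of its count may come from Gigyf2 if strand was ignored.

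Clic6, a chloride intracellular channel protein, was at 32.5 CPM in Tia1+/- replicate 3 and between 0.456 and 4.52 CPM in the other 11 libraries. The other Tia1+/- libraries had 0.966 and 1.25 CPM, so a single library of the group was high. It held 504 of the 761 Clic6 reads in the series and 32.3 times the median of the other libraries. The next library, P301S Tia1+/- replicate 3, had 4.52 CPM.

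Aqp1 encodes the water channel of the apical membrane of choroid plexus epithelium and is also found in other cells, among them olfactory ensheathing glia. It was 44.7, 5.75 and 1.60 CPM in WT and 13.8, 18.7 and 30.1 CPM in P301S Tia1+/-. In PS19 it was 0.416, 0.640 and 0.542 CPM, and in Tia1+/- 0.414, 0.394 and 3.16 CPM. WT replicate 1 held 28.0 times the median of the other libraries, and the PS19 and Tia1+/- groups, which were high for Ttr, were low for Aqp1, although Tia1+/- replicate 3 lay above WT replicate 3.

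Otx2, the homeodomain factor of the set, had 0 to 15 reads in a library. It was highest at 0.892 CPM in P301S Tia1+/- replicate 3, 0.880 in WT replicate 1, 0.801 in PS19 replicate 2 and 0.773 in Tia1+/- replicate 3, 1 library from each group. At 0 reads in WT replicate 2, where 3 reads would be 0.254 CPM, and 2 reads in PS19 replicate 1, the gene was near the limit of what the depth can show, and it shares exonic bases with Otx2os1 and Gm49154.

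**Figure D2:**
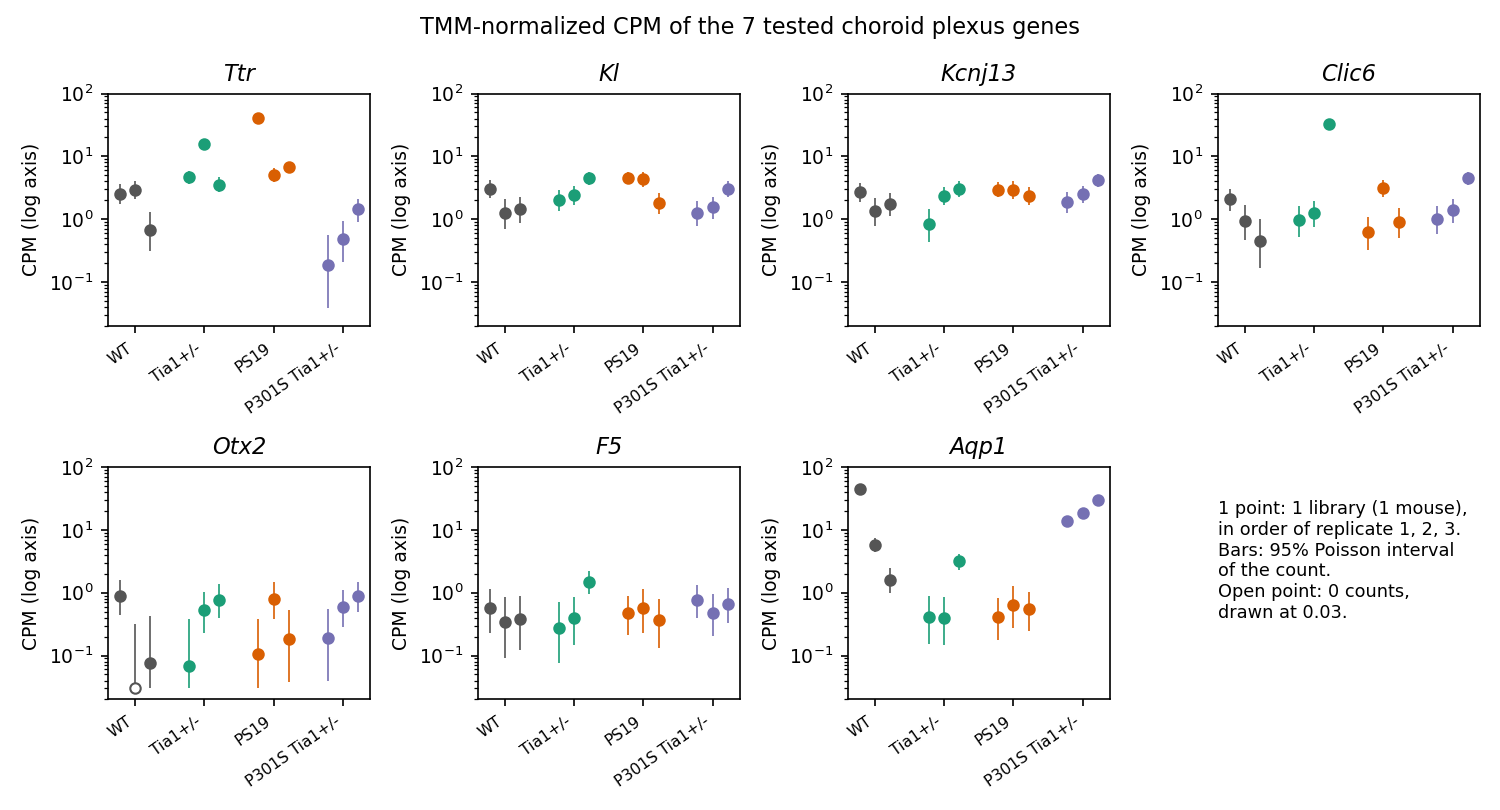
The CPM (log axis) of the 7 tested genes is plotted for each library by group, with the 95% Poisson interval of the count as bars and an open point for 0 reads. Ttr is high in PS19 and Tia1+/-, with 40.2 CPM in PS19 replicate 1 and 0.189 CPM in P301S Tia1+/- replicate 1, while Aqp1 is high in P301S Tia1+/- and WT replicate 1, and Clic6 is set apart by 1 Tia1+/- library at 32.5 CPM.

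Ratios of reads within a library do not depend on its scaling. Tissue of 1 composition would keep them in a narrow range if it were the only source of the reads. Several of these genes are also expressed by other cells, so the ranges below do not measure the content of choroid plexus. Ttr had 8.90 reads for each Kl read in PS19 replicate 1 and 0.150 in P301S Tia1+/- replicate 1, a 59.3-fold range. Ttr to Kcnj13 ranged 136-fold, Ttr to Clic6 591-fold and Ttr to Aqp1 7095-fold. The lowest ratios to Kl, Kcnj13 and Aqp1 were all in P301S Tia1+/- replicate 1 and rest on 3 Ttr reads. Kl to Kcnj13, the only pair examined without Ttr, ranged 3.90-fold, from 0.619 to 2.42. Kl alone covered a 3.59-fold range, Kcnj13 5.10-fold and Ttr 213-fold. The narrower range of this ratio therefore does not show that Kl and Kcnj13 moved together.

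Of the 12 libraries, 4 held the highest value of 2 genes each. These were PS19 replicate 1 for Ttr and Kl, Tia1+/- replicate 3 for Clic6 and F5, WT replicate 1 for Aqp1 and Slc4a5, and P301S Tia1+/- replicate 3 for Kcnj13 and Otx2. With DESeq2 size factors or total counts as the scale, Kl moved to Tia1+/- replicate 3, which then held 3. In PS19 replicate 1, 2 of the 7 tested genes were over 2 times the median of the other libraries (1.93% of all tested genes were), while Clic6, Otx2 and Aqp1 were at 0.50, 0.198 and 0.132 times that median. In Tia1+/- replicate 3 all 7 tested genes were above the median and 4 were over 2 times it (4.74% of all tested genes), from 1.20 times for Ttr to 32.3 times for Clic6. WT replicate 1 had 3 over 2 times (7.31% of all tested genes), namely Aqp1, Clic6 and Otx2, PS19 replicate 2 had 3 (1.52%), namely Kl, Clic6 and Otx2, and P301S Tia1+/- replicate 3 had 3 (6.22%), namely Aqp1, Clic6 and Otx2. Otx2 rests on at most 15 reads in each. Among the remaining libraries the number over 2 times was 2 in Tia1+/- replicate 2 (0.978%), 2 in P301S Tia1+/- replicate 2 (3.74%), 1 each in WT replicate 2 (1.37%), PS19 replicate 3 (0.751%) and P301S Tia1+/- replicate 1 (3.13%), and 0 in Tia1+/- replicate 1 (0.842%) and WT replicate 3 (0.881%). In WT replicate 3 none of the 7 was above the median.

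As a description over the 12 libraries, each tested gene was compared with the mean log2 CPM of the other 6. Pearson's r was 0.78 for Otx2, 0.74 for Kcnj13, 0.69 for F5, 0.64 for Kl and 0.58 for Clic6, but −0.32 for Ttr and −0.13 for Aqp1. The points share the scaling of each library, and the mean over 6 genes includes those with few reads. The mean over the 7 genes, centred over libraries, was highest in Tia1+/- replicate 3 (0.92), where the striatal genes were high. Next were P301S Tia1+/- replicate 3 (0.71) and WT replicate 1 (0.66). There the olfactory bulb genes were high, as were the meningeal and fibroblast genes (232 and 164 CPM). P301S Tia1+/- replicates 1 and 2 had olfactory bulb sums of 694 and 746 CPM but means of −0.31 and −0.0095.

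The tested genes whose levels followed that mean most closely over the 12 libraries were Pdzd3 (r = 0.95), Rcn1 (0.94), Ptgdr (0.93), Irgm2, Perp, Perm1, Pcdhb1, Nnat, Asap3 and Slc16a12 (0.90). None of them belongs to the 30 other choroid plexus genes listed below. The 10 genes most like Ttr alone included Fermt1 (r = 0.89), Icosl (0.88), Prph, Cdh2, Abca12, Tmem255b, Clasrp, Lrfn2 and D16Ertd472e (0.82), and 0 of the 10 were among the first 10. The closest to Aqp1 were Tbx21 (r = 0.99), Lgr4, Foxd3, Trh, BC049352, Omp (0.98), Eomes, Dlx2, Mitf and Vash2. Of these Tbx21, Omp and Eomes are on the olfactory bulb list, Omp being the mature olfactory neuron marker and Tbx21 a factor of mitral and tufted cells. The closest to Clic6 were Upb1 (r = 0.96), Slc10a4, Rarb, Rgs9 (0.94), Pde1b, 4932418E24Rik, Adora2a (0.94), Adamts3, Doc2b and Musk, and Rgs9 and Adora2a, a signalling regulator and the adenosine receptor of striatal neurons, are on the striatal list. The closest to Kcnj13 included Slc6a20a (r = 0.90), Igf2 (0.90), Slc13a4 (0.88), Myoc and Fmod, of which Igf2 and Slc13a4 are on the list of other choroid plexus genes and are also expressed in meninges. Likeness to Aqp1, Clic6, Kl and Kcnj13 singly was added after the data were seen, as were the ratios that follow.

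As a proportion of the summed olfactory bulb list (Omp, S100a5, Tbx21, Eomes, Doc2g, Th, Cdhr1 and Sp8), Aqp1 varied less than the sum itself. It was between 1.99% and 6.11% of that sum in all 12 libraries, while the sum itself ran from 6.81 to 1094 CPM. In WT replicate 1 Aqp1 was 4.09% of 1094 CPM, and in PS19 replicate 1 6.11% of 6.81 CPM, from 8 Aqp1 reads. Clic6 was 2.79% of the striatal sum of 1162 CPM in Tia1+/- replicate 3, and between 0.529% and 4.42% of sums from 72.6 to 193 CPM in the others. The list of cortical genes was lowest in the libraries highest for the striatal and the olfactory bulb lists, at 432 CPM in Tia1+/- replicate 3 and 637 CPM in WT replicate 1 against 771 to 1270 CPM elsewhere. The part of other dissected tissue in the Aqp1 and Clic6 values was not tested beyond these proportions.

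**Figure D3:**
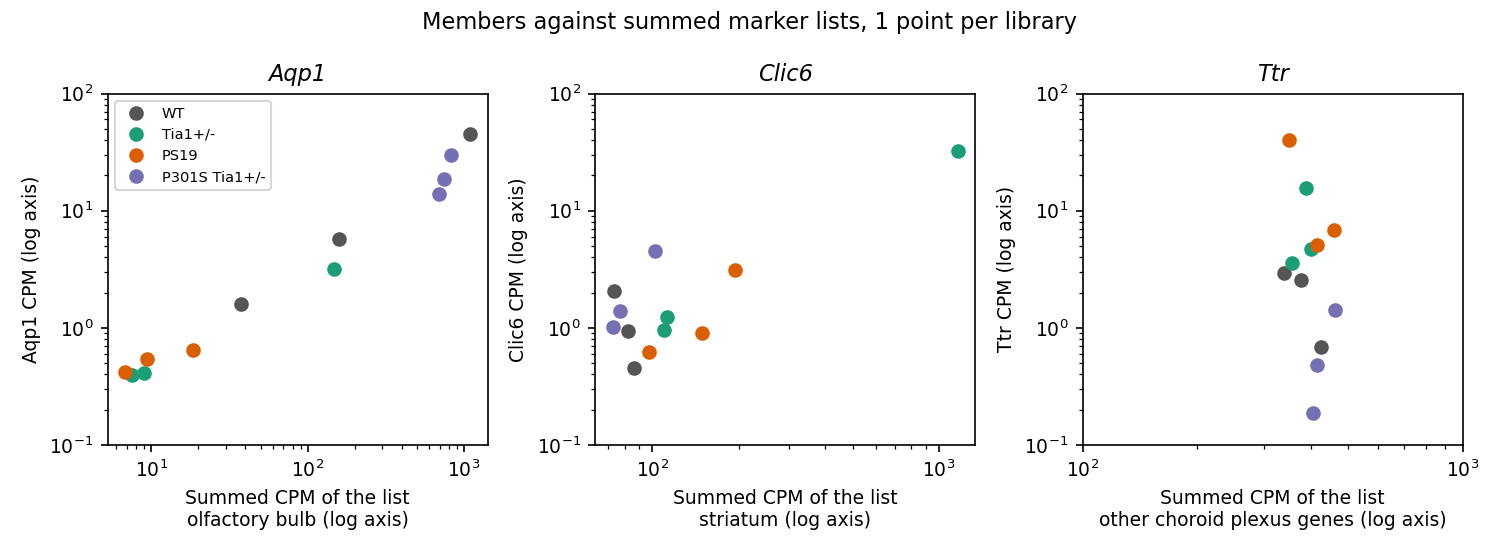
Each point is a library, with the summed CPM of a marker list on the horizontal axis and the CPM of 1 gene on the vertical axis, both logarithmic and coloured by group. Aqp1 rises with the olfactory bulb list from 6.81 to 1094 CPM, Clic6 is high in the library with 1162 CPM of striatal genes, and Ttr varies from 0.189 to 40.2 CPM while the other choroid plexus genes sum to between 339 and 463 CPM.

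A wider list of 30 other choroid plexus genes was read in the same way. The table held 29 of them and 21 were tested. Their sum was between 339 and 463 CPM in every library, and Enpp2, the lysophospholipase autotaxin that oligodendrocytes also express, made up 184 to 381 CPM of it, so the sum says little about the other genes. Several defining markers on it were at or near 0. Kcne2, a potassium channel subunit of the epithelium, was between 0 and 0.263 CPM, the claudin Cldn2 between 0 and 0.238 CPM, and the roof plate factor Lmx1a between 0 and 0.0801 CPM. In PS19 replicate 1, where Ttr was 13.6 times the median of the others, Kcne2 had 3 reads (0.156 CPM, 2.62 times the median of the others), Cldn3 7 reads (4.30 times), Msx1 15 reads (3.24 times, its highest library) and Lmx1a 0. Kcne2 was higher in Tia1+/- replicate 2 (4 reads) and PS19 replicate 2 (3 reads), which had 15.6 and 5.12 CPM of Ttr. Apart from these and PS19 replicate 1, libraries had 0 or 1 Kcne2 read. Cldn3 was higher in the P301S Tia1+/- libraries (10, 11 and 15 reads), which had 0.189 to 1.43 CPM of Ttr.

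Of the 21 tested genes of the wider list, 3 were over 2 times the median of the other libraries in PS19 replicate 1 (1.93% of all tested genes were), 7 in WT replicate 1 (7.31%), 8 in Tia1+/- replicate 3 (4.74%) and 7 in P301S Tia1+/- replicate 3 (6.22%). P301S Tia1+/- replicate 2 had 6 (3.74%), and the other 7 libraries had 0 to 3. The median ratio over the 21 genes was 1.30, 1.5, 1.35 and 1.61 in the first 4 of these libraries and 1.15 in P301S Tia1+/- replicate 2. The 5 highest in PS19 replicate 1 were Cldn1 (4.73 times, 7.69 CPM), a tight junction protein, Tmem72 (2.37), Slc13a4 (2.27), a sulfate transporter, Calml4 (1.97) and Slc29a4 (1.69), a monoamine transporter. In WT replicate 1 they were Krt8 (3.99), Krt18 (3.85), the keratins of simple epithelia, Slc13a4 (3.48), Slc29a4 (3.28) and Car12 (3.27), a carbonic anhydrase. In Tia1+/- replicate 3 they were Tmem72 (4.90), Prlr (3.43), the prolactin receptor, Epn3 (3.38), Slc29a4 (3.04) and Slc13a4 (3.02), and in P301S Tia1+/- replicate 3 Krt8 (12.5), Krt18 (12.3), Slc13a4 (5.12), Tmem72 (4.98) and Igfbp2 (2.67). Tmem72, Krt8 and Krt18 were each at or under 2.56 CPM in every library. Slc13a4 was highest in the 2 libraries highest for the list of meningeal and fibroblast genes, which summed to 232 CPM in P301S Tia1+/- replicate 3 and 164 CPM in WT replicate 1 against 21.0 to 94.3 CPM in the other 10, and the part of meninges in these values was not tested.

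The comparisons between groups asked whether the levels changed with P301S tau, and with Tia1 reduction in the presence or absence of tau. Between PS19 and WT, Ttr had a log2 fold change of 3.09 (SE 0.94, n = 3 libraries per group) and Aqp1 of −5.03 (SE 1.23). By edgeR's quasi-likelihood test over all tested genes neither passed, with adjusted p = 0.186 for Ttr and 0.159 for Aqp1, and 0 of 7 genes were called (0% of all tested genes were). Both had an unadjusted p under 0.05, as did 16.3% of all tested genes, and DESeq2 called 1 gene, Aqp1 (2.79% of its tested genes), of the 5 to which it gave an adjusted p. The groups did not overlap for Ttr and Aqp1, which is 2 of 7 genes against 20.8% of all tested genes, with Ttr higher in PS19 (9.75% of all tested genes were) and Aqp1 lower (11%). Without PS19 replicate 1 the log2 fold change of Ttr was 1.55, and without WT replicate 1 that of Aqp1 was −2.77. The log2 fold changes of Kl, Kcnj13, Clic6, F5 and Otx2 were 0.88 (SE 0.50), 0.50 (SE 0.45), 0.37 (SE 1.36), 0.10 (SE 0.62) and 0.05 (SE 1.23), with adjusted p values from 0.405 to 0.989. The median of the 7 was 0.37 beside −0.0066 over all tested genes, and 6 of 7 were above 0 beside 49.0%.

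In P301S Tia1+/- set against PS19, Ttr and Aqp1 had values of the opposite sign. The log2 fold change was −4.62 (SE 1.04, adjusted p = 0.0914 by edgeR) for Ttr and 5.30 (SE 1.23, adjusted p = 0.0927) for Aqp1. Again 0 of 7 genes were called (0.24% of all tested genes were), and an unadjusted p under 0.05 was seen for 2 (19.3%). DESeq2 called both (5.31% of its tested genes), and so did edgeR when only these 6 libraries were fitted (20.1%). The groups did not overlap for either gene, that is 2 of 7 beside 38.5% of all tested genes, with Ttr lower in P301S Tia1+/- (18.2%) and Aqp1 higher (20.2%). Without PS19 replicate 1 the value of Ttr was −3.11. The other 5 genes were between −0.86 for Kl (SE 0.49) and 0.75 for Otx2 (SE 1.07), with adjusted p from 0.358 to 0.953, and the median of the 7 was 0.45 beside 0.0097 over all tested genes, with 5 of 7 above 0 beside 51.5%.

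Between Tia1+/- and WT, Aqp1 had a log2 fold change of −3.69 (SE 1.10, adjusted p = 0.111 by edgeR), Clic6 of 3.32 (SE 1.30, adjusted p = 0.199) and Ttr of 1.95 (SE 0.93, adjusted p = 0.287). None of the 7 was called (0.712% of all tested genes were), 2 had an unadjusted p under 0.05 (19.1%), and DESeq2 called 1, Aqp1 (6.6% of its tested genes). The Clic6 value came from 1 library and was −0.05 without Tia1+/- replicate 3, the library with the high striatal genes. The Aqp1 value was −1.42 without WT replicate 1, and −4.22 with an adjusted p of 0.0426 without WT replicate 3, when 3.16% of the genes tested were called. Ttr alone had groups that did not overlap (1 of 7, beside 20% of all tested genes, 9.6% higher and 10.4% lower in Tia1+/-), and its value was 1.01 without Tia1+/- replicate 2. Kl, F5, Otx2 and Kcnj13 were at 0.63 (SE 0.50), 0.75 (SE 0.59), 0.51 (SE 1.14) and 0.10 (SE 0.46), and the median of the 7 was 0.63 beside 0.0057, with 6 of 7 above 0 beside 50.7%.

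The difference between the change with Tia1+/- in tau mice and that in mice without the transgene was −6.57 on the log2 scale for Ttr (SE 1.4, adjusted p = 0.0671 by edgeR) and 8.99 for Aqp1 (SE 1.65, adjusted p = 0.0579). Of the 7 genes 0 were called (0.00648% of all tested genes were) and 2 had an unadjusted p under 0.05 (22.9%). DESeq2 called both Ttr and Aqp1 (7.65% of its tested genes). For Clic6 it was −2.69 (SE 1.80) and for Kl −1.49 (SE 0.71), with adjusted p of 0.389 and 0.234, and 2 of 7 values were above 0 beside 50.5%. The comparisons share libraries: WT is the control of both PS19 and Tia1+/-, and PS19 is also the control of P301S Tia1+/-, so a high or low library enters more than a single value. For a single gene, 3 libraries per group limit the two-sided p of an exact permutation test to 0.1 or more.

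**Figure D4:**
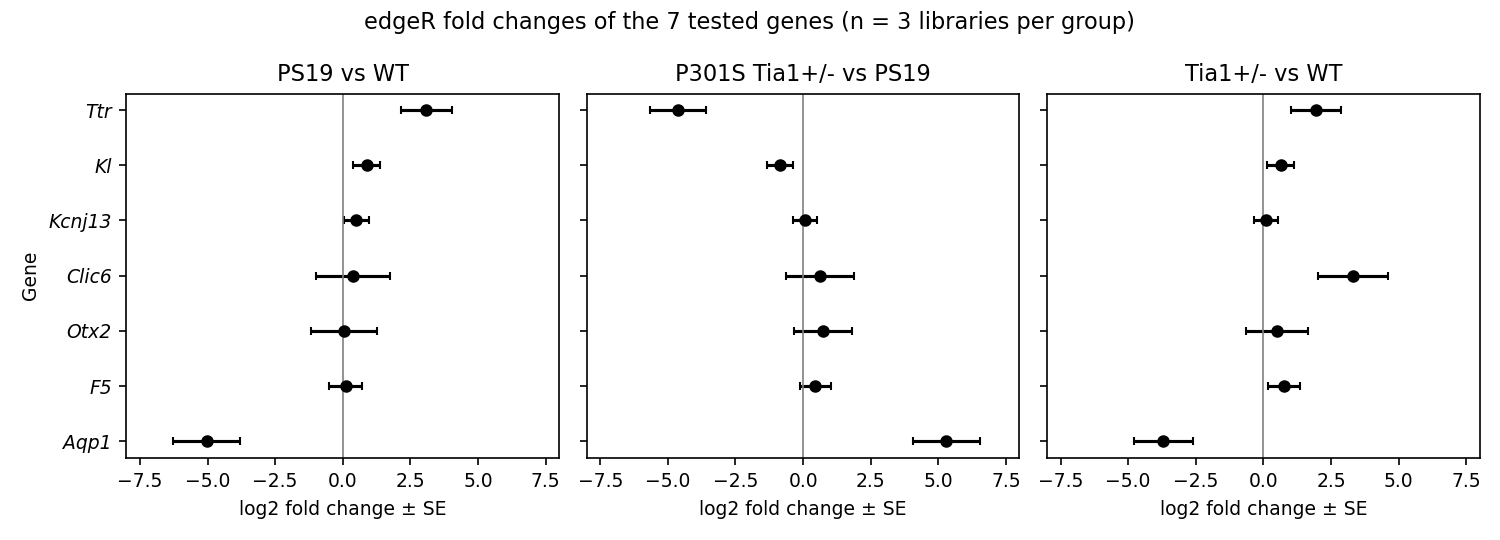
The log2 fold change of each of the 7 tested genes is plotted with its standard error as bars for 3 comparisons of 3 libraries against 3. Ttr (3.09, −4.62 and 1.95) and Aqp1 (−5.03, 5.30 and −3.69) lie on opposite sides of 0 in each panel, and Kl, Kcnj13, Otx2 and F5 lie between −0.86 and 0.88.

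Of the wider list of other choroid plexus genes, 0 of 21 were called by edgeR in the 3 comparisons of groups (0%, 0.24% and 0.712% of all tested genes). In the order given above 3, 3 and 2 had an unadjusted p under 0.05 (16.3%, 19.3% and 19.1% of all tested genes). DESeq2 called 1 (Igfbp2), 2 (Igfbp2 and Prlr) and 1 (Igfbp2), beside 2.79%, 5.31% and 6.6% of its tested genes. Their median log2 fold changes were 0.13, 0.23 and 0.14. Igfbp2, an IGF binding protein, had the lowest p, with a log2 fold change in P301S Tia1+/- against PS19 of 1.64 (SE 0.33, adjusted p = 0.0691). The 8 olfactory bulb genes had medians of −5.99, 6.53 and −3.03 and the 6 tested striatal genes of 1.06, −0.69 and 2.75, in the same order, so that the sign of the Aqp1 value was that of the olfactory bulb median in each comparison and the largest Clic6 value stood beside the largest striatal median. Of these 14 genes edgeR called 1, S100a5, higher in P301S Tia1+/- than in PS19, and DESeq2 called all 8 olfactory bulb genes between PS19 and WT and again between P301S Tia1+/- and PS19. The part of the tissue mix in the group values of Aqp1 and Clic6 was not tested.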

How the data were processed

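The authors aligned paired reads from stranded total RNA libraries to mm10 with TopHat2 (2.0.6 in the submitters' processing notes) and deposited raw counts per gene symbol from featureCounts; annotation and strand setting are not given in the sources used here. The 12 libraries are 3 mice of each of 4 genotypes, grouped by title, so p-values measure the spread between mice. Counts were scaled by TMM, filtered with filterByExpr (minimum count 10) and tested with edgeR 4.0.16 (quasi-likelihood, R 4.3.3, all 12 libraries, a mean per group), with Benjamini-Hochberg adjustment over 15440 genes and a threshold of 0.05. DESeq2 1.42.0 was an alternative. The scripts were tested on simulated data. Levels per kilobase used exon lengths from GENCODE M21 on GRCm38. Likeness was Pearson's r of log2 CPM with a pseudocount of 0.5.

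All 10 genes are named, as are the 10 tested genes most like their mean or like Ttr (1 of the latter is not reported here), and the 5 highest genes of the wider choroid plexus list in each of the libraries tied for most highest values; that rule foresaw 1 library and 4 tied. Further marker lists cover ependyma, meninges and fibroblasts, endothelium, blood, striatum, thalamus, dentate gyrus, olfactory bulb, pituitary and cortex. The 10 genes and all lists were chosen with earlier results of these data known, the olfactory bulb list after such genes had been seen to differ. Replicate numbers were checked for pairing: residual correlations of libraries with the same number ran from −0.54 to 0.35, so they were not treated as pairs. Alternatives were DESeq2 size factors, DESeq2's test, no filter, a filter of 10 counts in every library, the replicate block, a fit limited to the 6 libraries of a comparison, and leaving out each library in turn. No protein sequence was used.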

Additional observations from a re-analysis of the deposited data

Results flagged for a closer look

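For Ttr the effect of Tia1+/- differed with and without P301S tau by −6.57 on the log2 scale (SE 1.4). Every P301S Tia1+/- library lay below every PS19 library, at 0.189 to 1.43 CPM against 5.12 to 40.2, as for 18.2% of all tested genes. Every Tia1+/- library lay above every WT library, at 3.54 to 15.6 CPM against 0.684 to 2.96, as for 9.6% of all tested genes. The difference itself was tested as an interaction, with an adjusted p of 0.0671 by edgeR over all tested genes, and DESeq2 called it at the 0.05 threshold. Of the 21 tested genes of the wider choroid plexus list, 10 had an interaction below 0 and 11 above 0 (50.5% of all tested genes), with a median of 0.14. Of the 21, edgeR called 0 (0.00648% of all tested genes) and 4 had an unadjusted p under 0.05 (22.9%). These 4 were Prlr, Ace, Krt8 and Igfbp2. In the direction of Ttr were Prlr, the prolactin receptor, at −3.84 (SE 0.87, adjusted p = 0.0684 by edgeR, called by DESeq2), and Ace at −0.71 (SE 0.32, adjusted p = 0.214 by edgeR). Cldn1, not among the 4, was at −1.60 (SE 0.83, adjusted p = 0.276 by edgeR). Among the 10 genes Kl was at −1.49 (SE 0.71) and Clic6 at −2.69 (SE 1.80). In the opposite direction were Krt8 at 5.45 (SE 1.72) and Igfbp2 at 2.80 (SE 0.46, adjusted p = 0.0579), both called by DESeq2, and Kcnj13 was at −0.03 (SE 0.63). The sex of the mice and the Tia1 genotype cannot be told apart here. These interactions also rest on the library titles. With the 2 heterozygous groups exchanged, as in the deposited genotype entries, their values would differ and were not computed.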

How the results depend on the processing

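No call among the 7 tested genes was made with DESeq2 size factors in edgeR, without a filter, or with 10 counts required in every library, which only Kl and Kcnj13 met. The highest number of the 10 genes that peaked in 1 library was 2, also without Ttr, and 3 under DESeq2 size factors or total counts (Kl, Clic6 and F5 in Tia1+/- replicate 3). DESeq2's own test called 1, 2, 1 and 2 genes between PS19 and WT, P301S Tia1+/- and PS19, Tia1+/- and WT, and for the interaction, and edgeR on the 6 libraries compared called 2 between P301S Tia1+/- and PS19 (Ttr, adjusted p = 0.00925, and Aqp1, 2.98e-05); the cause was not tested. With WT replicate 1 and Tia1+/- replicate 3 both left out, added after the data were seen, edgeR called 1 (Aqp1, −3.14; 1.72% of all genes tested were called) between Tia1+/- and WT and 2 for the interaction (13.5%), and F5 was −0.10. The replicate block changed no call, though Otx2 between PS19 and WT was −0.15 and Kcnj13 between P301S Tia1+/- and PS19 was −0.0068 under it. With 1 library left out the calls ranged from 0 to 0, 0 to 0, 0 to 1 and 0 to 2 (for the interaction 1 without WT replicate 1, beside 1.55% of all genes, and 2 without WT replicate 3, beside 6.59%, or Tia1+/- replicate 3, beside 2.6%), and the interaction median from −2.0 to 0.67, its extremes without WT replicate 1 and Tia1+/- replicate 3. Between PS19 and WT the ranges were −1.13 to 2.82 for Otx2, −0.0298 to 0.35 for F5 and −0.59 to 1.11 for Clic6. Between P301S Tia1+/- and PS19 they were −0.32 to 0.29 for Kcnj13 and −0.32 to 1.56 for Clic6, and between Tia1+/- and WT −0.27 to 0.48 for Kcnj13, −0.0846 to 3.30 for Otx2, −0.052 to 4.08 for Clic6 and −0.33 to 1.13 for F5. Of 238 alternative fold changes 211 kept sign and side of the threshold, 19 changed sign and 8 passed it. The genes most like the mean shared 4 or 5 of 10 with the first list when a library highest for 2 genes was left out. Low counts limit Otx2, F5, Folr1, Sostdc1 and Slc4a5.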

Other observations

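The remaining marker lists were read with edgeR in the same comparisons, in the order PS19 with WT, P301S Tia1+/- with PS19 and Tia1+/- with WT. Ependymal genes, which mark the ciliated lining of the ventricles next to the choroid plexus, summed to between 6.21 and 20.4 CPM, and 0 of 7 tested were called in any comparison, with median log2 fold changes of 0.44, −0.13 and −0.36. Meningeal and fibroblast genes had medians of −0.82, 1.24 and −1.20 with 0 of 8 called, and endothelial genes −0.03, 0.11 and −0.09 with 0 of 7 called. The 6 hemoglobin genes of the blood list were at 0 in every library, and the tested blood gene, Alas2, was not called. Alas2 was at 1.45 to 4.34 CPM. Whether hemoglobin reads were lost in library preparation or counting was not tested, so the zeros do not measure blood. Thalamic genes had medians of 0.10, 0.12 and 0.33 with 0 of 6 called, dentate gyrus genes −0.28, −0.36 and 0.16 with 0 of 4 called, and cortical genes 0.26, −0.71 and 0.09 with 0 of 6 called. Of the 8 meningeal and fibroblast genes, 4 had an unadjusted p under 0.05 between P301S Tia1+/- and PS19, all higher, beside 19.3% of all tested genes. All 8 were above 0 there (51.5% of all tested genes) and all 8 were below 0 between Tia1+/- and WT. For the interaction DESeq2 called Lum, Col1a1 and Bgn of that list, and Ak7 of the ependymal list, beside 7.65%. Elsewhere between 0 and 2 genes of a list had an unadjusted p under 0.05, beside 16.3%, 19.3% and 19.1% of all tested genes. DESeq2 called 2 genes of these lists, Ak7 (ependyma) and Slco1a4 (endothelium), between P301S Tia1+/- and PS19, beside 5.31% of its tested genes. Of the 3 tested pituitary genes, 1 was called, Prl, which was higher in Tia1+/- than in WT, where the list summed to 8.14 to 46.3 CPM against 1.35 to 2.81.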
